A study of Mus musculus with 11 samples.

Results

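The regions described here are stretches of mouse skin keratinocyte chromatin that were listed as ATAC-seq peaks after wounding in both genotypes and in neither genotype before it. ATAC-seq marks accessible DNA by the insertions of a transposase, and a broad peak is a stretch where such insertions exceed the local background. The peak lists of 4 conditions were joined and overlapping peaks were merged into 42950 regions of the mouse build mm10. A merged region was a member when a peak of the WT wounded list and a peak of the *Grhl3*-cKO wounded list overlapped it and no peak of either unwounded list did. This gave 1993 members, which is 4.64% of the merged regions and 9.89% of the 20147 regions present in both wounded lists. The members were chosen by these peak calls, so their enrichment values are given as a description with no test.

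The study asked how the transcription factor GRHL3 acts in keratinocytes that migrate over a skin wound. All mice were labelled C57BL/6 (C57BL/6J in the methods), aged 8 weeks and of both sexes. The controls, called WT, carried *Krt14*-Cre with unaltered *Grhl3*, and their cKO littermates carried *Krt14*-Cre with floxed *Grhl3*, so Cre was present in every group and was driven by a promoter of basal keratinocytes. Wounded cells came from the wound margin 3 days after excision and unwounded cells from skin away from the wound, and in each case CD49F-positive cells were sorted with CD45, CD31 and TER119 cells excluded.

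ATAC-seq was available as 1 list for each condition, made from a library that pooled 4 wounds of 2 mice, so it holds no replicates. The lists do not give their read depth, and the methods state only a lower limit per sample. The WT unwounded list held 10769 peaks, the WT wounded list 36872, the cKO unwounded list 29364 and the cKO wounded list 22474. RNA-seq comprised 2 WT unwounded, 2 WT wounded, 1 cKO unwounded and 2 cKO wounded libraries. The depth on genes was 15488699 and 16807451 counts for WT unwounded, 16653948 and 15418631 for WT wounded, 13497283 for cKO unwounded, and 15223569 and 14279568 for cKO wounded cells.

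Grainyhead-like factors such as GRHL3 bind a short palindromic DNA motif and direct formation of the skin barrier and closure of epithelia. Regions that open after injury in epidermis commonly lie far from promoters and act as enhancers, where AP-1 dimers of FOS and JUN proteins bind together with factors such as TEAD, RUNX and C/EBP. Keratinocytes at a wound margin take on a migratory state, with rearranged actin, new integrins and altered junctions.

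*Grhl3* itself was examined first. Its counts were 1893 and 1398 in the WT unwounded libraries, 1831 and 1388 in the WT wounded libraries, 1029 in the unwounded library labelled cKO, and 1765 and 1491 in the wounded libraries labelled cKO. The wounded libraries of the 2 labels overlapped, and *Grhl3* was not lower under the cKO label (log2 fold change 0.17, SE 0.21, edgeR adjusted p = 1 by Benjamini-Hochberg). According to the study, deletion was checked by PCR between the loxP sites and by staining of GRHL3 protein at the wound front, whereas a count over the whole gene includes exons outside that segment, so it does not check the labels. The genotype is therefore called by its label here, and every direction between genotypes below is one between labels. No member had *Grhl3*, *Grhl1* or *Grhl2* as its nearest gene. The unwounded library labelled cKO also stood apart by sex-linked genes: its *Xist* count was 14854, against 3 to 32 in the other libraries, and its summed count of 4 Y-linked genes was 0, against 2580 to 3589. It is the single baseline for the wound response under the cKO label.

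The members were modest peaks. Their fold enrichment over local background, the value in column 7 of the lists, had a median of 3.90 in the WT wounded list (range 1.83 to 7.69) and of 3.95 in the cKO wounded list (1.77 to 6.78). The lower and upper quartiles were 3.55 and 4.39 in the first list and 3.64 and 4.34 in the second. By comparison, regions listed in all 4 conditions had medians of 5.24 and 4.94 in the same lists, those missing only from the WT unwounded list 4.39 and 4.20, and all merged regions 4.21 and 4.37. Regions listed in WT wounded cells alone were lower than members, at 3.73. Column 8, the −log10 p of the peak against background, had a median of 5.19 (3.37 to 13.7) in the WT wounded list and of 5.02 (3.48 to 10.96) in the cKO wounded list. Both enrichments reached 4 in 503 members and 5 in 23 members. The members had a median width of 407 bases (187 to 1725), against 449 over all merged regions and 276 in those listed in WT wounded cells alone.

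Enrichment was similar under both labels. The ratio of the cKO to the WT value had a median of 1.01 and ranged from 0.458 to 1.69. It was within 1.2-fold in either direction in 1491 members, above 1.5 in 16 and below the inverse of 1.5 in 19. The WT value was the higher one in 941 members and the cKO value in 1052. Nearly all members had a simple structure, since 1991 held exactly 1 peak from each wounded list and in 1992 the wounded peaks overlapped directly.

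Membership rests on whether a peak was called, and calls near the limit decide part of it. Just inside the limit, the member nearest to Kcna3 had a WT wounded −log10 q of 1.15, and the one nearest to Olfr1368 had a cKO wounded −log10 q of 1.05. Just outside it, a region nearest to *Rgs7* was no member because of a cKO unwounded peak with a −log10 q of 1.02 and a fold enrichment of 2.998. An unwounded peak lay within 1000 bases of 139 members, from the WT list in 32 cases and from the cKO list in 135. The unwounded lists also differed in how far down they reached: peaks with an enrichment under 3.5 made up 9.46% of the WT unwounded, 15.9% of the WT wounded, 24.2% of the cKO unwounded and 6.94% of the cKO wounded list. How the depth of each list bears on membership was not tested. When each list was shortened to equal length, 610 regions met the rule, of which 59 overlapped a member, and with a fold enrichment of at least 4 required in the wounded lists there were 503.

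Most members lay away from promoters. Within 1000 bases of the start of a protein-coding gene there were 369 members, or 18.5% (Wilson 95% interval 16.9% to 20.3%). A further 68 (3.41%) touched an exon, 655 (32.9%) lay in introns and 901 (45.2%) between genes. The promoter share was 26.0% over all merged regions, 51.2% in regions listed in all 4 conditions, 27.3% in those missing only from the WT unwounded list, and 12.3% in those listed in WT wounded cells alone. The median distance from a member to the nearest protein-coding start was 29533 bases, against 19475.5 bases over all merged regions. GC content was close, with medians of 48.5% and 50%. Members were spread over all autosomes and chromosome X at 3.86% (chromosome 7) to 5.52% (chromosome 3) of the merged regions of each chromosome, and none of the 15 regions on chromosome Y was a member.

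Sequence motifs were counted in a window of 300 bases around the midpoint of each region, on both strands. The AP-1 motif TGANTCA occurred in 31.6% of members and in 27.6% of all merged regions. The TEAD motif GGAATG occurred in 20.1% and 17.9%, the RUNX motif TGTGGT in 19.7% and 18.1%, and the C/EBP motif TTGCNNAA in 16.3% and 13.8%. The ETS motif CCGGAA went the other way, with 7.38% of members and 10.1% of all regions. Regions listed in WT wounded cells alone had shares near those of members for TEAD (19.8%), RUNX (19.4%) and C/EBP (15.7%), and a lower one for ETS (5.97%). Their AP-1 share of 28.7% was nearer to that of all merged regions. In regions missing only from the WT unwounded list the AP-1 share was 29.8%. The GRHL core AACNNGTT was found in 7.07% of members and 6.36% of all regions. Its full palindrome AACCGGTT, which is one of the forms of the core, was found in 0.301% and 0.289%. The shares varied with position: AP-1 matches occurred in 7.59% of members at promoters and in 41.0% of those more than 100000 bases from a start, whereas ETS matches occurred in 17.1% and 4.57%. AP-1 matches were also found in 40.4% of the members with both enrichments at 4 or more and in 28.7% of the others. The palindrome was present in 6 members. These are nearest to *Tram1*, *Ndfip2*, *Filip1l*, *Gnaq*, *Cdh3* and the predicted gene Gm35549, and 4 of them lie in introns. Their enrichments ran from 3.78 to 5.49 in the WT and from 3.40 to 4.87 in the cKO wounded list. The cKO value was the lower one in 5 of the 6, beside 941 of all 1993 members. For *Cdh3* the values were close, at 4.999 in the WT and 4.87 in the cKO wounded list. These 6 members were chosen after their values were seen, and the pooled libraries hold no replicates. Whether the palindrome bears on the difference between labels was not tested.

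The strongest members were ranked by the smaller of their 2 wounded enrichments. The first, chr7:127573086-127573409, covered the start of *Phkg2*, which encodes a catalytic subunit of phosphorylase kinase, with a fold enrichment of 6.07 in WT and 5.96 in cKO wounded cells. The fourth, chr3:95929017-95929388, covered the start of *Anp32e*, a chaperone of the histone H2A.Z, with 6.25 and 5.54. These were the only members at promoters among the highest 12. The RNA counts of both genes had no call in either comparison, with log2 fold changes after wounding in WT of −0.24 (SE 0.43) for *Phkg2* and −0.15 (SE 0.17) for *Anp32e*.

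Other strong members had genes for developmental transcription factors as their nearest genes, at long distances. The second, chr13:72292405-72292665, was intergenic and 328682 bases upstream of *Irx1*, an Iroquois homeobox gene, with enrichments of 5.81 in WT and 5.99 in cKO wounded cells. The third, chr2:9328479-9328710, was intergenic and 549890 bases downstream of the start of *Gata3*, a zinc finger factor of hair follicle and barrier formation, with 5.66 and 5.55. *Irx1* and *Gata3* had no call in WT cells after wounding (log2 fold changes −0.14, SE 0.22, and −0.01, SE 0.17). A nearest start is a matter of distance and does not show which gene a region acts on.

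Further members of this group had mixed neighbours. Those in introns were chr7:90871704-90872024 in *Dlg2*, a synaptic scaffold gene (7.35 in WT, 5.47 in cKO), chr5:81501109-81501546 in *Adgrl3*, an adhesion receptor gene (5.45 and 5.66), chr14:13901552-13902039 in the predicted gene *Gm281* (5.49 and 5.53) and chr2:38906103-38906443 in *Nr6a1*, an orphan nuclear receptor gene (5.32 and 5.39). The member chr5:90987318-90987803 lay in an intron of *Mthfd2l* and 39661 bases upstream of *Epgn*, which encodes the EGF receptor ligand epigen, with 5.96 and 5.46. Intergenic members lay 13162 bases upstream of *Prpf39*, a splicing factor gene (5.42 and 5.34), and 13870 bases upstream of *Wnt5a*, a gene for a secreted WNT ligand (5.49 and 5.32). *Epgn* was the most highly expressed of these neighbours, with counts of 4870 and 5294 in WT unwounded, 6746 and 4999 in WT wounded, 4444 in cKO unwounded, and 4474 and 3779 in cKO wounded libraries. Its call as lower in cKO than in WT wounded cells, at an unadjusted P under 0.05 (log2 fold change −0.36, SE 0.17), was lost without WT wounded replicate 1 (−0.20) and without cKO wounded replicate 2 (−0.25). The *Epgn* call was lost in 3 alternatives in all, at −0.36 to −0.20. *Wnt5a* and *Nr6a1* were called higher after wounding in WT at the same threshold, at 0.80 (SE 0.37) and 0.71 (SE 0.33). Both calls failed in most alternative settings, and the *Wnt5a* value was 0.03 without WT wounded replicate 2, the library with its highest count, 411 against 153 to 247 in the other libraries.

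The sequences at the centres of some of the strongest members are given next. Of the highest members whose windows hold no untranslated region, 5 are printed here and 1 is left out. Each is given as 300 bases around the midpoint, from the plus strand of GRCm38.p6, the assembly behind mm10. The windows are chr13:72292385-72292684 for *Irx1*, chr2:9328445-9328744 for *Gata3*, chr14:13901646-13901945 for *Gm281*, chr7:90871714-90872013 for *Dlg2* and chr5:90987411-90987710 for *Epgn*. Capitals mark matches to the GRHL core or to the AP-1 motif. Those of *Gata3*, *Dlg2* and *Epgn* hold 1 AP-1 match each, that of *Gm281* holds 1 GRHL core, and that of *Irx1* holds neither.
*Irx1*: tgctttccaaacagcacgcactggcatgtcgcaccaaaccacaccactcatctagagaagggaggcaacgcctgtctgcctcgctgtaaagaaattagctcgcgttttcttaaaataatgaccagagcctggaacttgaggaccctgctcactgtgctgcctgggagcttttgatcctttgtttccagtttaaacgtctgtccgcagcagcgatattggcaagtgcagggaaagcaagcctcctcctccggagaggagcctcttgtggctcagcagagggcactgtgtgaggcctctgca
*Gata3*: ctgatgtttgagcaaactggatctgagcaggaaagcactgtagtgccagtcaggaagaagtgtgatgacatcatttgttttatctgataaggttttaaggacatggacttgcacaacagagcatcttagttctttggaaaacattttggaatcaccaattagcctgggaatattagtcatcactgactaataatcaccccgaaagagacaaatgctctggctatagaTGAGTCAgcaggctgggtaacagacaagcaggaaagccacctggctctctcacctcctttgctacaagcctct
*Gm281*: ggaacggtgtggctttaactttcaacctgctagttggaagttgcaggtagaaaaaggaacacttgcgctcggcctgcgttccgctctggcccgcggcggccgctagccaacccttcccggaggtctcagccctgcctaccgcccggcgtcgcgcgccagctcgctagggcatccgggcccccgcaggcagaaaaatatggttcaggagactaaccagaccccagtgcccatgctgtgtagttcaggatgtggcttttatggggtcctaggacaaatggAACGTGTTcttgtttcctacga
*Dlg2*: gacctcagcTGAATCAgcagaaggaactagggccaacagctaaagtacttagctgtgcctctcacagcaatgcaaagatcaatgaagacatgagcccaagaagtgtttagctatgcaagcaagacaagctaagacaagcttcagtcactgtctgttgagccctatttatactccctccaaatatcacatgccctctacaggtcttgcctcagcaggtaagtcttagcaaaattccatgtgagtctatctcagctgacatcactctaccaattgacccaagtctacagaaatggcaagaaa
*Epgn*: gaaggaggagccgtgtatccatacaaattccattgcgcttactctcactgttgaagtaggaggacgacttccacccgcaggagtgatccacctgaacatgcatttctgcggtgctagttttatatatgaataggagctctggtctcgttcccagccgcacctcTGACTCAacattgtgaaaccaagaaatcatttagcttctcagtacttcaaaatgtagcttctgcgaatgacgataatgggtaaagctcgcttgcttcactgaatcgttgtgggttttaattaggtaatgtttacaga

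A pair of members was added after their values were seen, since both hold a GRHL core and lie at genes of cell adhesion and the actin cytoskeleton. The member chr5:142958681-142958951 lay 1392 bases upstream of *Fscn1*, which encodes the actin-bundling protein fascin, with fold enrichments of 4.81 in WT and 3.98 in cKO wounded cells. The member chr8:106529885-106530156 lay in an intron of *Cdh3*, the gene for P-cadherin, 18994 bases downstream of its start, with 4.999 and 4.87. A cKO unwounded peak lay 1026 bases from the *Cdh3* member and 4376 bases from the *Fscn1* member. The windows chr5:142958666-142958965 (*Fscn1*) and chr8:106529871-106530170 (*Cdh3*) are printed in the same way. The *Fscn1* window holds the core AACAGGTT, and the *Cdh3* window holds the palindrome AACCGGTT with an AP-1 match, TGAGTCA, at bases 182 to 188.
*Fscn1*: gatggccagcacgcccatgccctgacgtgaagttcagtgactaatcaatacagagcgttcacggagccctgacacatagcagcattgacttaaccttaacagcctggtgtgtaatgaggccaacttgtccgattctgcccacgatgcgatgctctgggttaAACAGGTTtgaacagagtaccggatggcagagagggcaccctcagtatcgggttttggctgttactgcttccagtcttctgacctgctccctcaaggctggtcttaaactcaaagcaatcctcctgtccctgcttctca
*Cdh3*: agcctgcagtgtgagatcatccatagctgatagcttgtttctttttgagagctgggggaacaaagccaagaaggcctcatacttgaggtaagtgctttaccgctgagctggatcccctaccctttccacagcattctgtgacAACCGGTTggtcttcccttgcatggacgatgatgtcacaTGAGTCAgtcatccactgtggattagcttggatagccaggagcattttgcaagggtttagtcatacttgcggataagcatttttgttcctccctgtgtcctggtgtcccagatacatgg

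*Fscn1* counts were 849 and 1655 in WT unwounded, 1850 and 1994 in WT wounded, 455 in cKO unwounded, and 1958 and 805 in cKO wounded libraries. WT wounded libraries were both above the WT unwounded ones, and both cKO wounded libraries were above the single cKO unwounded one. The mean difference under the cKO label was 1.32 log2 units. It was not tested, and *Fscn1* was not 2-fold higher in each cKO wounded library. The cKO wounded libraries lay near opposite ends of the WT range. The log2 fold change after wounding in WT was 0.68 (SE 0.32), just short of a call, and that of cKO against WT wounded cells was −0.34 (SE 0.32), also with no call. Both turned on single libraries. The WT value was 1.15, a call, without WT unwounded replicate 2, and 0.32 without replicate 1. It was 0.79, also a call, without WT wounded replicate 1, and 0.55 without WT wounded replicate 2. The value between labels was −1.10, a call, without cKO wounded replicate 1, and 0.16 without replicate 2. *Cdh3* counts ran from 2602 to 3916 over all 7 libraries, with log2 fold changes of 0.06 (SE 0.18) and −0.05 (SE 0.18).

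The 1993 members had 1669 nearest genes, of which 255 had at least 2 members. Most members per gene, 5 each, were found for *Ghr*, the growth hormone receptor, for *Lmo4*, a LIM-only cofactor of epidermal transcription, and for *Adgrl3*. Another 7 genes had 4, namely *Anxa3*, *Nckap5*, *Bach1*, *Bcl11a*, *Lmo7*, *Tmsb4x* and *Slitrk6*. Of the *Ghr* members 4 lay in its introns between chr15:3404251 and chr15:3485747, while those of *Lmo4* were strung over chr3:143736378-144202816, with 1 over the start. Those of *Tmsb4x*, the gene of the actin-sequestering peptide thymosin β4, were all intergenic on chromosome X. Of these 10 genes, only *Anxa3*, an annexin, was called in an RNA comparison described below. Its counts were 13 and 68 in WT unwounded, 89 and 348 in WT wounded, 2 in cKO unwounded, and 89 and 33 in cKO wounded libraries. WT wounded replicate 2 stood well above the rest, and without it the call in WT (log2 fold change 2.54, SE 0.76) was lost at 1.14 and that of cKO against WT wounded cells (−1.74, SE 0.73) was lost at −0.33. The latter was also lost without cKO wounded replicate 2 (−1.20), and in 3 alternatives in all, at −1.22 to −0.33.

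Nearest genes were then followed in RNA-seq, which the choice of members did not use. Of the 1669 genes, 1583 were found by symbol in the count tables, and 1292 passed the filter on low counts and were tested, while 291 did not pass and 86 were not found. All 7 libraries were fitted together in edgeR over 14045 genes, with Benjamini-Hochberg adjustment over all of them. The biological coefficient of variation was 31.6%. Counts at an unadjusted P under 0.05 are given beside the share of all tested genes that met the same threshold, and a gene is named as called when it met it.

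After wounding in WT cells, nearest genes of members were called more often as higher than as lower in the fit of all 7 libraries. At an unadjusted P under 0.05, 98 of 1292 genes (7.59%) were called, against 4.84% of all tested genes. Of these 71 were higher and 27 lower, or 5.50% and 2.09%, beside 3.18% and 1.67% of all genes. Without WT wounded replicate 1 the count was 120, with 65 higher and 55 lower, beside 5.57% of all genes. The nearest genes of regions listed in WT wounded cells alone gave 6.93%, those of regions missing only from the WT unwounded list 6.09%, those of any merged region 5.06% and those of regions listed in all 4 conditions 4.74%. The median log2 fold change of members' genes was 0.04, against 0.00. At 8.25% (25 of 303), genes with a member at the promoter were near the share of 8.17% for those with one within 10000 bases, while members between 10000 and 100000 bases away gave 9.42% (57 of 605) and those farther away 5.79%. At the adjusted threshold 2 genes passed, *Cald1* and *Pmepa1*, where 4 of all genes did (0.0285%). Other settings gave 0 to 20 nearest genes. No share of all genes stands beside these counts, so they are not compared with a background.

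*Cald1* and *Pmepa1* rose after wounding in WT cells. *Cald1* encodes caldesmon, which binds actin and restrains myosin, and its member, chr6:34709223-34709591, covered one of its starts with enrichments of 3.42 in WT and 3.76 in cKO wounded cells. Its counts were 558 and 905 in WT unwounded, 1842 and 2479 in WT wounded, 413 in cKO unwounded, and 722 and 513 in cKO wounded libraries. Both WT wounded libraries thus lay above the other 5, with a log2 fold change of 1.62 (SE 0.25, edgeR adjusted p = 0.0258 by Benjamini-Hochberg). *Pmepa1*, a target and inhibitor of TGF-β signalling, had an intergenic member 4940 bases upstream, chr2:173281473-173281887, with enrichments of 3.31 and 4.02. Its counts were 648 and 789, then 1654 and 2005, then 693, then 1333 and 1212, in the same order of groups. It was higher in wounded libraries of both labels, and its log2 fold change in WT was 1.395 (SE 0.20, edgeR adjusted p = 0.0126 by Benjamini-Hochberg). Both calls depend on the setting: over 11 alternatives the Benjamini-Hochberg adjusted p from edgeR or DESeq2 ran from 5.45e-11 to 0.411 for *Cald1* and from 1.60e-08 to 0.303 for *Pmepa1*, and each passed in 5. Leaving out WT unwounded replicate 1 gave edgeR adjusted p of 0.221 and 0.195, WT unwounded replicate 2 gave 0.0640 and 0.0908, WT wounded replicate 2 gave 0.111 and 0.0629, and the unwounded library labelled cKO gave 0.140 and 0.0540.

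Other genes with the smallest P were also called higher in wounded WT cells. *Lama1*, a laminin chain gene with an intronic member, had counts of 128 and 119 in WT unwounded, 372 and 276 in WT wounded, 306 in cKO unwounded, and 445 and 444 in cKO wounded libraries. Only the WT unwounded libraries were low, and the log2 fold change in WT was 1.41 (SE 0.28). *Fbln2*, which encodes fibulin-2 and had a member at its promoter and another 9557 bases upstream, had counts of 214 and 177, 366 and 1175, 65, and 377 and 283 in that order, with 2.04 (SE 0.43) in WT. WT wounded replicate 2 was far above the other libraries, and without it the value was 0.86. *Slc2a12*, a glucose transporter gene, was low in WT unwounded libraries (216 and 219) beside 364 to 738 in all others, with 1.18 (SE 0.29), or 0.70 without WT wounded replicate 2. *Sorcs2*, a sortilin-family receptor gene, reached 1.51 (SE 0.31), *Nrg1*, an ERBB receptor ligand gene, 1.51 (SE 0.42) and *Nedd4l*, a ubiquitin ligase gene, 0.71 (SE 0.20). These calls at an unadjusted P under 0.05 were kept when any 1 WT library was left out. None passed adjustment in the edgeR fit of all 7 libraries with the filter on low counts, but all except *Nedd4l* did in at least 1 other setting. Without WT wounded replicate 1 the edgeR p adjusted by Benjamini-Hochberg was 0.000144 for *Fbln2*, 0.0303 for *Slc2a12* and 0.0339 for *Sorcs2*. *Lama1*, *Fbln2* and *Sorcs2* passed in DESeq2, and all 5 passed in edgeR without the filter.

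Some genes called higher had very low counts. *Sema6d*, a semaphorin gene with a pair of intergenic members, had 3 and 0 in WT unwounded, 60 and 101 in WT wounded, 0 in cKO unwounded, and 45 and 46 in cKO wounded libraries. *Hmga2*, a chromatin protein gene, had 0 and 6, 37 and 81, 8, and 78 and 19. *Basp1* had 31 and 9, 219 and 89, 4, and 21 and 55, and *Bmpr1b*, a BMP receptor gene, had 11 and 0, 65 and 76, 47, and 83 and 43. Wounded libraries were above the unwounded ones under both labels for *Sema6d*, *Hmga2* and *Basp1*, whereas the cKO unwounded library reached the wounded cKO range for *Bmpr1b*.

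Genes called lower in wounded WT cells were fewer. *Tmtc1*, an O-mannosyltransferase gene with 3 members, had counts of 411 and 448 in WT unwounded, 161 and 165 in WT wounded, 423 in cKO unwounded, and 139 and 125 in cKO wounded libraries. Unwounded and wounded libraries were fully apart under both labels, and the log2 fold change in WT was −1.36 (SE 0.28). *Gas7*, an actin-associated gene with 3 members, showed the same arrangement, with 3287 and 2914, 2169 and 1622, 2560, and 1192 and 1545, and a value of −0.69 (SE 0.19). *Faah*, the hydrolase that degrades anandamide, was lower in WT at −0.93 (SE 0.24), with 839 and 1142 before and 535 and 472 after wounding, but its counts under the cKO label were 228 before and 345 and 493 after. The share of nearest genes called lower, 2.09%, was near the 1.67% of all tested genes. It was 2.02% for regions listed in WT wounded cells alone.

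Between labels in wounded cells, most calls among nearest genes were in the direction of lower counts in cKO. This comparison shares the WT wounded libraries with the one above. At an unadjusted P under 0.05, 88 of 1292 genes (6.81%) were called, against 4.04% of all tested genes. Of these 27 (2.09%) were higher in cKO, close to the 1.96% of all genes, and 61 (4.72%) were lower, against 2.08%. Without WT wounded replicate 2 the count was 137, with 52 higher and 85 lower, beside 6.16% of all genes. Without WT wounded replicate 1 it was 77, with 35 higher and 42 lower, beside 4.03% of all genes. In the edgeR fit of all 7 libraries with the filter on low counts, no gene passed adjustment, among members' genes or all genes (0%). No share of all genes stands beside the counts in other settings, so these are not compared with a background. Among members' genes 6 passed without the filter and 1 in DESeq2, and some also passed when either WT wounded library was left out. *Cald1* was among them each time, with a log2 fold change of −1.68 (SE 0.25, edgeR adjusted p = 0.0729 by Benjamini-Hochberg), and over 11 alternatives its adjusted p from edgeR or DESeq2 ran from 1.97e-11 to 1 and passed in 4.

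The nearest genes with the smallest P in this comparison included a secreted ligand, a sialyltransferase and a nuclear receptor. *Tgfb2*, a TGF-β ligand gene with an intergenic member 230750 bases downstream of its start, had counts of 195 and 246 in WT unwounded, 295 and 243 in WT wounded, 333 in cKO unwounded, and 130 and 66 in cKO wounded libraries. The cKO wounded libraries were the lowest of all, with a log2 fold change against WT wounded of −1.31 (SE 0.35). *St3gal1*, a sialyltransferase gene with 3 intergenic members, had 518 and 456 in WT wounded and 263 and 126 in cKO wounded libraries, with −1.18 (SE 0.33), or −0.75 without cKO wounded replicate 2. *Fam167a* had 3062 and 2321 against 1560 and 1316, with −0.76 (SE 0.18), and *Msrb3*, a methionine sulfoxide reductase gene, had 798 and 520 against 284 and 368, with −0.86 (SE 0.25). *Rora*, a nuclear receptor gene, was called higher in cKO, with 3578 and 3729 against 4711 and 4930 and a value of 0.54 (SE 0.16). The unwounded library labelled cKO was also high for *Rora*, at 6429, and low for *Msrb3*, at 385, *Fam167a*, at 1213, and *St3gal1*, at 188 beside 313 to 518 in the WT libraries. The call of *Msrb3* was lost without WT wounded replicate 1 (−0.59), while those of *Tgfb2*, *St3gal1*, *Fam167a* and *Rora* were kept without any 1 of the 4 wounded libraries.

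Other calls in this comparison were lost when single libraries were left out. *Nrg1* was called lower in cKO at −1.19 (SE 0.42), but not without WT wounded replicate 2 (−0.95) or cKO wounded replicate 2 (−0.73). *Fbln2* was called lower at −1.11 (SE 0.42), and without WT wounded replicate 2 its value turned to 0.06, while without cKO wounded replicate 2 it was −0.93 with no call. Without WT wounded replicate 1 the *Fbln2* value was −1.75 (edgeR adjusted p = 0.0427 by Benjamini-Hochberg). *Sorcs2* was called lower at −0.66 (SE 0.30), a call lost without WT wounded replicate 2 (−0.35) or cKO wounded replicate 2 (−0.44). The *Sorcs2* call was lost in 4 alternatives in all, at −0.66 to −0.35. *Basp1* was called lower at −1.85 (SE 0.74), a call lost without WT wounded replicate 1 (−1.14) or cKO wounded replicate 1 (−1.30). The *Basp1* call was lost in 3 alternatives in all, at −1.63 to −1.14. *Lama1* was called higher at 0.61 (SE 0.27), but not without WT wounded replicate 2 (0.47), cKO wounded replicate 1 (0.62) or cKO wounded replicate 2 (0.60). Without either cKO wounded library its value changed little. The *Lama1* call was lost in 4 alternatives in all, at 0.47 to 0.62.

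The response under the cKO label has 1 unwounded library and was described without a test. To be counted, a gene had to be 2-fold or more above that library in each wounded library, or 2-fold or more below it in each. Among nearest genes 64 (4.95%) were higher and 54 (4.18%) lower, close to the 5.69% and 3.89% of all tested genes. With at least 10 counts required in every library, 45 genes (4.15%) met the rule, beside 4.13% of all genes. When 1 wounded library was used alone the count was 222 (17.2%) or 257 (19.9%), beside 18.3% or 19.5%. Of the 118 genes, 3 lie on chromosome X or Y. Members' genes past the rule included *Tnc*, *Fbln2* and *Sema6d*, all higher, and *Tmtc1* and *Tgfb2*, both lower. Genes with a member at the promoter gave 9.57% higher (29 of 303) and 2.97% lower, and those with one between 10000 and 100000 bases away 3.80% and 5.29%.

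Gene lists of processes known in wounded epidermis were compared with the members. A gene is counted here when it was the nearest gene of at least 1 member, which held for 7.61% of all protein-coding genes and 9.20% of tested genes. Regions listed in WT wounded cells alone, with 5770 nearest genes, were found at more genes of every list. They were at 19 of 33 wound front genes, 11 of 14 TGF-β genes and 15 of 32 junction and actin genes. They were also at 23 of 26 epidermal transcription factor genes, 7 of 11 AP-1 genes and 5 of 12 differentiation genes. In the wound front list, which holds keratins, integrins, proteases and growth factors, 6 of 33 genes had a member: *Itgb1*, *Fscn1*, *Ereg*, *Inhba*, *Cald1* and *Tnc*. Of the 33 genes, 15 were called higher and 0 lower after wounding in WT (median log2 fold change 0.68), beside 3.18% and 1.67% of all tested genes. In cKO against WT wounded cells 0 were called higher and 11 lower (median −0.48), beside 1.96% and 2.08% of all tested genes. By the 2-fold rule under the cKO label 12 were higher and 1 lower, beside 5.69% and 3.89%. These background shares also apply to the lists below. Some genes of this list are named in the study from these samples, so it is no independent evidence of a direction. *Itgb1*, the β1 integrin subunit, had 3 members, the nearest in its intron, and counts of 6238 and 6451 in WT unwounded, 7902 and 10162 in WT wounded, 5425 in cKO unwounded, and 6625 and 4556 in cKO wounded libraries. It was called higher after wounding in WT at 0.55 (SE 0.20) and lower in cKO at −0.56 (SE 0.20). The first call was lost without WT unwounded replicate 2 (0.51) or WT wounded replicate 2 (0.28), and the second without WT wounded replicate 2 (−0.29) or cKO wounded replicate 2 (−0.32). *Tnc*, the matrix protein tenascin-C with an intronic member, was lowest in the cKO unwounded library (710), with 2728 and 5913 in WT unwounded, 5288 and 7523 in WT wounded, and 4376 and 2226 in cKO wounded libraries. Its call as lower in cKO wounded cells (−0.83, SE 0.31) was lost without WT wounded replicate 2 (−0.47) or cKO wounded replicate 2 (−0.43). In all, 3 alternatives lost the *Tnc* call, at −0.83 to −0.43. The EGF receptor ligand gene *Ereg* and the activin subunit gene *Inhba* had low counts of 84 to 202 and 4 to 74 and no call.

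In the TGF-β list 7 of 14 genes had a member. They were the ligand *Tgfb2*, the receptor *Tgfbr2*, the signal transducer *Smad4*, the inhibitors *Smad7* and *Pmepa1*, the latency protein *Ltbp1* and the matrix target *Tgfbi*. *Smad7* had 3 members, at 3682, 71913 and 124737 bases from its start, the latter pair in introns of *Ctif*, and *Ltbp1* had a pair in its introns. Most genes of the list had no call in either RNA comparison. In WT after wounding 4 of 14 genes were called higher (*Skil*, *Pmepa1*, *Ltbp1* and *Tgfbi*) and 0 lower, with a median of 0.08, and in cKO against WT wounded cells 1 was called lower, *Tgfb2*, and 0 higher, with a median of −0.13. *Smad7* (−0.10, SE 0.23), *Smad4* (−0.01, SE 0.18) and *Tgfbr2* (0.08, SE 0.20) had no call in WT. *Tgfbi* had counts of 7371 and 8879 in WT unwounded, 10293 and 13157 in WT wounded, 12114 in cKO unwounded, and 12591 and 9972 in cKO wounded libraries, and the WT groups did not overlap. Its call in WT (0.58, SE 0.18) was lost without WT wounded replicate 2 (0.31), and that of *Ltbp1* (0.65, SE 0.24) without WT unwounded replicate 2 (0.54) or WT wounded replicate 1 (0.53).

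The junction and actin list had a member at 5 of 32 genes: the cadherin *Cdh3*, the membrane linker *Ezr*, the desmosomal genes *Dsg3* and *Pkp1*, and the tight junction gene *Cldn1*. None of these 5 was called in either comparison, although in the whole list 8 genes were called higher in WT wounded than unwounded cells, beside 3.18% of all tested genes, and 9 lower in cKO than in WT wounded cells, beside 2.08%. The members of *Ezr* (3.41 in WT, 3.66 in cKO) and *Pkp1* (3.90 and 3.87) covered starts, and that of *Cldn1* (5.60 and 4.65) was intergenic. *Dsg3* counts were 9840 and 9362 in WT unwounded, 11088 and 11055 in WT wounded, 7507 in cKO unwounded, and 10282 and 7637 in cKO wounded libraries, with a WT log2 fold change of 0.24 (SE 0.17). Members thus lay at junction genes whose RNA level had no call.

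Epidermal transcription factors had members at 5 of 26 genes, namely *Ovol2*, *Gata3*, *Tfap2c*, *Sox9* and *Sox4*. None of the 5 was called after wounding in WT. *Tfap2c*, an AP-2 factor with a member 2137 bases upstream, was called higher in cKO than in WT wounded cells, with 2015 and 1848 against 2328 and 2401 and a log2 fold change of 0.44 (SE 0.16). This call was lost without WT wounded replicate 1 (0.44) or 2 (0.44) or cKO wounded replicate 2 (0.41), each with little change in the value. The member of *Ovol2*, a repressor of epithelial plasticity, overlapped coding sequence 359 bases downstream of a start, with 3.15 and 3.53, and lay 13 bases from a cKO unwounded peak. *Sox9*, a hair follicle factor, had members 420988 bases upstream and 142314 bases downstream of its start.

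The AP-1 list had 1 of 11 genes with a member, and this was *Fos*, whose member chr12:85473583-85474075 covered the start and coding sequence, with 3.73 in WT and 4.35 in cKO wounded cells. *Fos* counts were 24682 and 27314 in WT unwounded, 23912 and 25916 in WT wounded, 44368 in cKO unwounded, and 31065 and 27581 in cKO wounded libraries. They were thus highest before wounding under the cKO label. *Fos* was called higher in cKO than in WT wounded cells at 0.37 (SE 0.14), a call lost without WT wounded replicate 1 (0.26) or cKO wounded replicate 1 (0.31). Across the list, 0 of 10 tested genes were called in WT after wounding, and 3 were called higher (*Fos*, *Fosb* and *Atf3*) and 0 lower in cKO than in WT wounded cells. The differentiation list had 2 of 12, *Casp14*, a cornification protease gene, with an intergenic member 8756 bases upstream (6.13 and 4.56), and *Tgm3*, a transglutaminase gene. Neither was called. Across that list, 0 genes were called higher and 4 lower after wounding in WT, and 5 higher and 0 lower in cKO wounded cells.

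Some nearest genes are markers of cells other than keratinocytes, and fewer cells of a type and less RNA per cell cannot be told apart in bulk libraries. The endothelial markers *Cdh5*, *Kdr* and *Emcn* had members, that of *Kdr* covering its start with 4.59 in WT and 4.92 in cKO wounded cells and lying 76 bases from a WT unwounded peak. *Cdh5* counts were 1 and 13 in WT unwounded, 107 and 44 in WT wounded, 0 in cKO unwounded, and 12 and 53 in cKO wounded libraries, and *Kdr* counts were 4 and 0, 76 and 5, 0, and 36 and 22. Both were called higher in WT after wounding, *Cdh5* not without WT unwounded replicate 1 (2.61) or WT wounded replicate 1 (2.77), and *Kdr* not without WT unwounded replicate 2 (3.21) or WT wounded replicate 1 (1.32). The 6 endothelial markers, led by *Flt1*, summed to 1.85 and 2.31 CPM, which are counts scaled to the size of each library, in WT unwounded, 25.8 and 12.8 in WT wounded, 0.832 in cKO unwounded, and 10.5 and 8.31 in cKO wounded libraries. Their sum was higher in every wounded library, also beside the wound front and matrix genes above, and 4 of 6 were called higher in WT. *Emcn* and *Tek* had no call, and *Emcn*, *Tek* and *Pecam1* were not higher in every wounded library. *Emcn* counts were 14 and 0 in WT unwounded, 12 and 0 in WT wounded, 0 in cKO unwounded, and 5 and 0 in cKO wounded libraries. *Tek* was at 0.41 CPM in cKO wounded replicate 1 and 0.53 in the cKO unwounded library. *Pecam1* was at 1.04 CPM in cKO wounded replicate 2 and 1.33 in WT unwounded replicate 2. The part of endothelial cells in the ATAC-seq and RNA-seq results was not tested.

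The other markers were summed in the same way. Keratinocyte markers, led by *Krt14*, made up 29706 to 43873 CPM in the 7 libraries and none had a member. Suprabasal markers, led by *Krt1*, summed to 5391 and 5929 in WT unwounded, 2985 and 4676 in WT wounded, 8475 in cKO unwounded, and 6142 and 7366 in cKO wounded libraries, so they were lower in WT wounded than in all other libraries. Hair follicle markers, led by *Krt15*, summed to 5656 and 4901, 4400 and 3596, 6732, and 3762 and 4424 in the same order, lower in every wounded library, and *Lhx2*, *Krt15* and *Krt79* were called lower in WT. Fibroblast markers, led by *Col3a1*, summed to 28.4 and 14.1, 19.4 and 46.8, 11.3, and 26.7 and 37.4 in the same order. Leukocyte markers, led by *Cd68* and with *Cd3e* at 0, summed to 3.71 and 2.02, 5.22 and 6.77, 2.12, and 4.58 and 6.58. Their sum was higher in every wounded library, and *Lyz2* was called higher in WT. *Cd68* itself was not higher in every wounded library, at 3.39 and 1.21, 3.68 and 3.13, 1.59, and 1.44 and 2.77 CPM. *Ptprc* was at 0 in both WT wounded libraries. *Pdgfra* had a member over its start and 2 to 17 counts, and *Ptprc* an intergenic one and 0 to 11. Melanocyte markers, led by *Dct*, summed to 2.49 and 0.462, 8.83 and 5.21, 1.74, and 6.16 and 6.02. Mural markers, led by *Cspg4*, summed to 129 and 118, 126 and 76.3, 158, and 74.7 and 62.9. This mural sum was nearly all *Cspg4*. The other mural markers were near 0, with 0 or 1 counts for *Rgs5*, 0 to 9 for *Pdgfrb* and 0 to 31 for *Myh11*. Erythroid markers, with *Hba-a1* and *Hbb-bs* at 0, summed to at most 0.907. *Dct* and *Tyr* of the melanocyte and *Col1a2* of the fibroblast markers were called higher in WT after wounding, and *Cspg4* and the endothelial *Flt1* were called lower in cKO than in WT wounded cells. The suprabasal *Krt1*, *Krt10* and *Krtdap* were called higher in that comparison. The part of these cells in the members' results was not tested.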

How the data were processed

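For 7 RNA-seq libraries the authors deposited counts, as unscaled whole numbers by gene symbol. The submitters' processing notes name FastQC, kallisto and mm10, and the counting step is not stated. The count tables end in tallies of ambiguous reads, reads not unique and reads on no gene, as written by counters of aligned reads, so it is not known which program made the counts. For each ATAC-seq peak the authors deposited a fold enrichment over local background (column 7), a −log10 p (column 8), a −log10 q (column 9) and a whole-number score that follows from the q. Per the methods the authors aligned these reads with bowtie2 and called peaks with MACS2.

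Peaks were merged with bedtools 2.31.1 at a distance of 0. Starts, exons and introns came from the basic set of GENCODE vM21 on GRCm38, with promoters within 1000 bases of a protein-coding start. Counts were normalized by TMM and filtered by filterByExpr in edgeR 4.0.16 (R 4.3.3, limma 3.58.1), and 1 quasi-likelihood fit of 4 groups gave two-sided tests with Benjamini-Hochberg adjustment. Standard errors are the log2 fold change over the root of its F. The 2-fold rule used log2 CPM with a prior count of 2. Both RNA-seq scripts and region scripts were tested on simulated data. DESeq2 1.42.0 served as an alternative, and Python 3.11.15, pandas 2.3.3, numpy 2.4.6 and scipy 1.17.1 made the summaries. Windows on chromosome 18 or with untranslated sequence were not printed. Intervals cover counting error only.

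With 1 exception that is left out, named genes are nearest genes of the 12 members highest by their smaller enrichment, the 20 with the smallest P in either comparison, those in the lists, and those named in the study. Members within 1000 bases of a start, 369 in all, also met the rule and are summarised. Genes with 4 or more members, the genes at the limit of a call and those with a palindrome were chosen after their values were seen. The members and lists were chosen with earlier results of these data known.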

Additional observations from a re-analysis of the deposited data

Results flagged for a closer look

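Only the 66 tested nearest genes chosen to be named were searched, and 5 of them (7.58%) had opposite responses in CPM, which are counts scaled to the size of each library. In these, both WT wounded libraries lay on one side of both WT unwounded libraries while both cKO wounded libraries lay on the opposite side of the single cKO unwounded library. The same arrangement was found in 127 of 1292 tested nearest genes (9.83%) and in 1466 of all 14045 tested genes (10.4%). In raw counts *Epgn*, *Tgfbi* and *Tgfb2* do not meet it. The difference between the labels was not tested, since the cKO label has 1 unwounded library, which also stands apart by its sex-linked counts. *Faah*, the anandamide hydrolase, was 1.65 log2 units higher in its response under the cKO label, at 0.71 against −0.93 in WT. *Tgfb2*, a TGF-β ligand, differed by −2.28, with −1.96 under the cKO label and 0.32 in WT. *Nckap5*, a gene with 4 members, differed by −1.70, with −0.97 against 0.73. *Tgfbi*, a matrix gene, differed by −0.83, with −0.25 against 0.58. *Epgn*, an EGF receptor ligand, differed by −0.49, with −0.25 against 0.24. The part of the single unwounded library in these differences was not tested.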

How the results depend on the processing

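Among single genes only the 41 results with a call are counted here: of their 441 values, 384 kept their direction and their side of the threshold, 56 lost a call and 1 reversed, which was *Fbln2* in cKO against WT wounded cells, at 0.063 without WT wounded replicate 2 and −1.75 to 0.063 over all wounded libraries left out in turn.

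The number of members was 1853 to 2469 under most alternatives, but the 2469 regions with a −log10 q of at least 2 in all lists overlapped 1085 members, and the 2384 with a fold enrichment of at least 4 in all lists overlapped 503. It was 503 with a fold enrichment of at least 4 in the wounded lists and 610 with lists of equal length, where fewer peaks enter by construction. With no unwounded peak within 1000 bases, an alternative chosen after seeing the data, it was 1854. The promoter share was 22.1% within 2500 bases of a start, and the AP-1 share was 38.1% over whole regions, which are longer than the windows.

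For WT cells after wounding, leaving out 1 library gave 92 to 120 called genes (7.19% to 9.37%, beside 4.47% to 5.61% of all genes), and nearest starts of any gene gave 65 of 745 (8.72%), fewer because fewer genes were tested. For cKO against WT wounded cells, leaving out 1 library gave 66 (5.16%, beside 3.03% of all genes) to 137 (10.7%, beside 6.16%), and nearest starts of any gene gave 55. These 55 were among 745 tested genes (7.38%), a share not below the 6.81% of the main fit. Fits with replicate number as a block gave 108 called genes for WT cells after wounding and 96 for cKO against WT wounded cells (8.36% and 7.43%, beside 5.12% and 4.24% of all genes). In this replicate block, numbers were taken as pairs, although the differences between replicates 1 and 2 correlated over genes between groups at an r of only −0.04 to 0.15. The numbers are those of the titles, and for the unwounded cKO library that number is 2 where its file has 1, so the replicate block rests on the title. Without the unwounded library labelled cKO, also chosen after seeing the data, the counts were 90 and 82 (7.35% and 6.70%, beside 5.02% and 4.01%). For the 2-fold rule the counts were 222 and 257 when 1 wounded library was left out (17.2% and 19.9%, beside 18.3% and 19.5% of all genes) and 45 with at least 10 counts in every library (4.15%, beside 4.13%). The cause of the changes not explained by construction was not tested. Where a group kept 1 library, it was assumed to vary like the others. Pooled ATAC-seq libraries give no spread, and the read depth of each list is not given.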
